A study of Mus musculus with 6 samples.

Results

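The Hedgehog pathway of the embryonic mouse trachea was read through the probes named for its ligands Shh, Ihh and Dhh, its receptor genes Ptch1 and Smo, its transcription factors Gli1, Gli2 and Gli3, and its ligand-binding inhibitor Hhip. Of these 9 genes, 7 had a probe under their own symbol on the Illumina mouse bead array, 10 probes in all of 25697, and Gli1 and Gli2 had none. RNA came from whole tracheas at embryonic stage E18.5 in the C57BL/6 background. The 3 pools labelled mutant were Sox9-/- by genotype and lacked Sox9, the chondrocyte transcription factor gene, in the tracheal mesenchyme, so that no cartilage rings formed, per the labels. The 3 pools labelled control were Sox9+/+. Each pool joined 3 tracheas at random, 9 per group from 7 pregnant females, and the driver of the deletion is not given in the sources used here. Each p-value therefore rests on how far pools of 1 group differ, and the number of pools limits the precision.

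Hedgehog ligands are lipid-modified secreted proteins. Ligand binding to Ptch1 ends its inhibition of the membrane protein Smo, and active Smo acts through the primary cilium to turn Gli factors into activators of transcription. Ptch1, Gli1 and Hhip are themselves targets of the pathway and feed back on it, Ptch1 and Hhip by binding ligand. In the developing mouse trachea Shh is made by the epithelium and acts on the surrounding mesenchyme, and mice without it fail to form proper cartilage rings. Ihh is best known from prehypertrophic chondrocytes of the growth plate, and Dhh from Schwann cells, Sertoli cells and endothelium.

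The start-site windows of the feedback targets Ptch1 and Hhip are shown because they are the only pathway targets among the members that had a probe. The windows are RefSeq's for assembly GRCm38.p6 and span 250 bases before to 50 bases after a transcript start, on the minus strand in both genes, at chr13:63565686-63565985 for Ptch1 and chr8:80057959-80058258 for Hhip. The start in the Ptch1 window lies 7725 bases inside the outer end of the RefSeq gene, so it is an internal start, and that of Hhip lies 52 bases inside. Capitals mark the GC box GGGCGG or its reverse complement.
Ptch1: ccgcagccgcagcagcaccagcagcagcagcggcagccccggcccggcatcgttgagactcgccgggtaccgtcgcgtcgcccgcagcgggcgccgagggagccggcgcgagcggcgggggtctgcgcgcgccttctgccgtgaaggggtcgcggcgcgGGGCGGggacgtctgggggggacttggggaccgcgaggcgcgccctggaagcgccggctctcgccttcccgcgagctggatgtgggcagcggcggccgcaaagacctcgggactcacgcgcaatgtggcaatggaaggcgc
Hhip: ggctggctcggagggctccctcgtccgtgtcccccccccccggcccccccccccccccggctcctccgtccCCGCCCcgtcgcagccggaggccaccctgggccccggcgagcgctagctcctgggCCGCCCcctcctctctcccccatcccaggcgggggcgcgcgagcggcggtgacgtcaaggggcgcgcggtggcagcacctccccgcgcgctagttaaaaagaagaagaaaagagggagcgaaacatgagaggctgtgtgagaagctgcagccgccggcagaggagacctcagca
The window of Ptch1 held 1 GC box and that of Hhip held 2, and neither holds the 9-letter GLI consensus GACCACCCA on either strand. RefSeq windows were at hand for 7 of the 9 genes (not for Shh and Gli1). None of the 7 holds the GLI consensus, which occurs in 0.253% of all 32851 windows, whereas 6 hold a GC box, which occurs in 35.7%. The absence of these letters applies to this window alone.

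On the arrays, 14468 to 14726 probes were detected in each pool, with a median raw intensity of 205 to 211 in the pools labelled mutant and 183 to 198 in those labelled control. All 6 arrays carry the same slide number in the labels, with each group in adjacent positions, so effects of array position cannot be told apart from those of genotype. The Sox9 probe was just above background in the 3 pools labelled mutant and not above it in any control pool. Its raw intensities were 194 ± 8.42 in the pools labelled mutant and 147 ± 4.90 in those labelled control (SD, n = 3 each). On the normalized scale, with control values raised to the lowest detected value of each array, it was 1.12-fold higher under the mutant label. A probe this close to background, which entered the fit only through 1 group, does not check the genotype, and no test of it is given. The cartilage collagen gene Col2a1 was lower in the pools labelled mutant by both of its probes (log2 difference -6.36 and -5.75). The tracheal epithelial genes Nkx2-1, Foxa1, Trp63 and Krt8 were detected in all 6 pools.

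No Hedgehog probe passed the test between the pools labelled mutant and those labelled control, although both Shh probes and that of Dhh had higher means in the pools labelled mutant. Of the 10 probes, 8 were above background in at least 3 pools and entered the fit over 14711 probes (limma, Benjamini-Hochberg adjusted p below 0.05, two-sided), and 7 of these were above background in every pool. None of the 8 was called, where 4.41% of all probes tested were called (1.67% with a higher and 2.75% with a lower level under the mutant label). The eighth probe, that of Ihh, entered only through the pools labelled mutant and is left out of the next counts. Of the 7 probes above background in every pool, 4 had an unadjusted p below 0.05, against 23.5% of all 13085 such probes. In 3 of the 7 the values of the 2 groups did not overlap, against 30.8% of such probes and 29.7% of all probes tested. The median log2 difference of the 7 was -0.17, against 0.01 for such probes. As 3 of the 7 read Smo and 2 read Shh, these counts and this median are of probes and not of separate genes. The number of calls over all probes, 649, depended on single pools: with control pool 1, 2 or 3 left out it was 589, 135 or 122, and with mutant pool 1, 2 or 3 left out it was 372, 47 or 142.

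**Figure D1:**
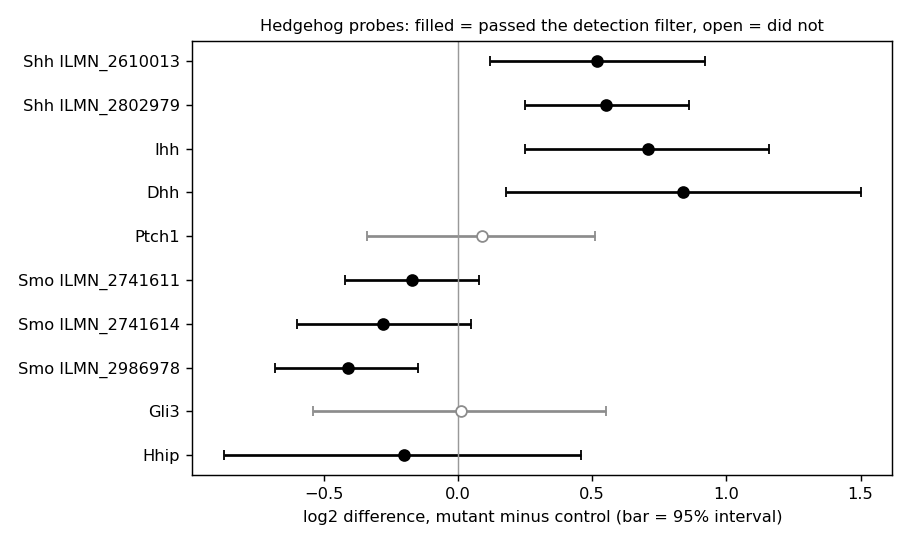
Log2 difference, mutant minus control, of each of the 10 Hedgehog probes on the horizontal axis, with its 95% interval from the limma fit; filled points passed the detection filter and open points did not. The 2 Shh probes and Dhh lie at 0.52, 0.55 and 0.84, the 3 Smo probes lie between -0.41 and -0.17, and the point of Ihh is set against control values under detection.

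Shh was read by 2 probes, which gave differences of the same size. Probe ILMN_2610013 had normalized log2 intensities of 11.04, 11.41 and 11.19 in the pools labelled mutant, against 10.99, 10.42 and 10.66 in those labelled control. All 3 mutant values lay above the control values, but mutant pool 1 and control pool 1 were 11.04 and 10.99. The means were 11.21 ± 0.19 in the pools labelled mutant and 10.69 ± 0.29 in those labelled control (SD, n = 3 each), a log2 difference of 0.52 (SE 0.17, 95% interval 0.12 to 0.92, limma adjusted p = 0.128). Probe ILMN_2802979 had 9.04, 8.84 and 8.89 in the pools labelled mutant, against 8.5, 8.14 and 8.47 in those labelled control. All 3 mutant values again lay above all control values. The log2 difference was 0.55 (SE 0.13, 95% interval 0.25 to 0.86, adjusted p = 0.0625), a 1.46-fold higher signal with an interval of 1.19-fold to 1.81-fold. The 2 probes correlated at 0.823 over the 6 arrays, as a description of probes that read the same RNA. The probe ILMN_2802979 passed the threshold under 4 of 8 other settings, with adjusted p between 0.0239 and 0.0921, and in none of the 6 fits without 1 pool. The adjusted p of the other probe was 0.0529 to 0.214 over 9 other settings.

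The airway epithelium, the known source of Shh, was read beside it. Of 11 epithelial marker genes tested, 9 had differences above 0, against 5537 of all 10831 genes tested. None of the 11 was called, and their median log2 difference was 0.41, against 0.01 for all genes. The summed linear intensity of the 11 genes was 59100 to 62200 in the pools labelled mutant, against 54000 to 55400 in those labelled control. The largest positive difference was that of Foxa2, an endodermal transcription factor gene (0.84, SE 0.21, adjusted p = 0.0729). Krt5, a keratin of basal cells, had the largest difference in the other direction (-0.64, SE 0.22, adjusted p = 0.147). Set against the mean log2 level of these genes on the same array, ILMN_2610013 differed by 0.21 between the groups, with relative levels of 0.05, 0.36 and 0.09 in the pools labelled mutant and 0.11, -0.20 and -0.04 in those labelled control, which overlap (exact two-sided permutation p = 0.3). The relative levels of ILMN_2802979 were -1.95, -2.22 and -2.21 in the pools labelled mutant, against -2.38, -2.49 and -2.23 in those labelled control. They did not overlap and differed by 0.24 (exact permutation p = 0.1, the smallest that 3 pools against 3 allow). The part of the epithelial share in the Shh values was not tested. In whole tracheas, fewer cells of a type and less RNA per cell cannot be told apart.

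**Figure D2:**
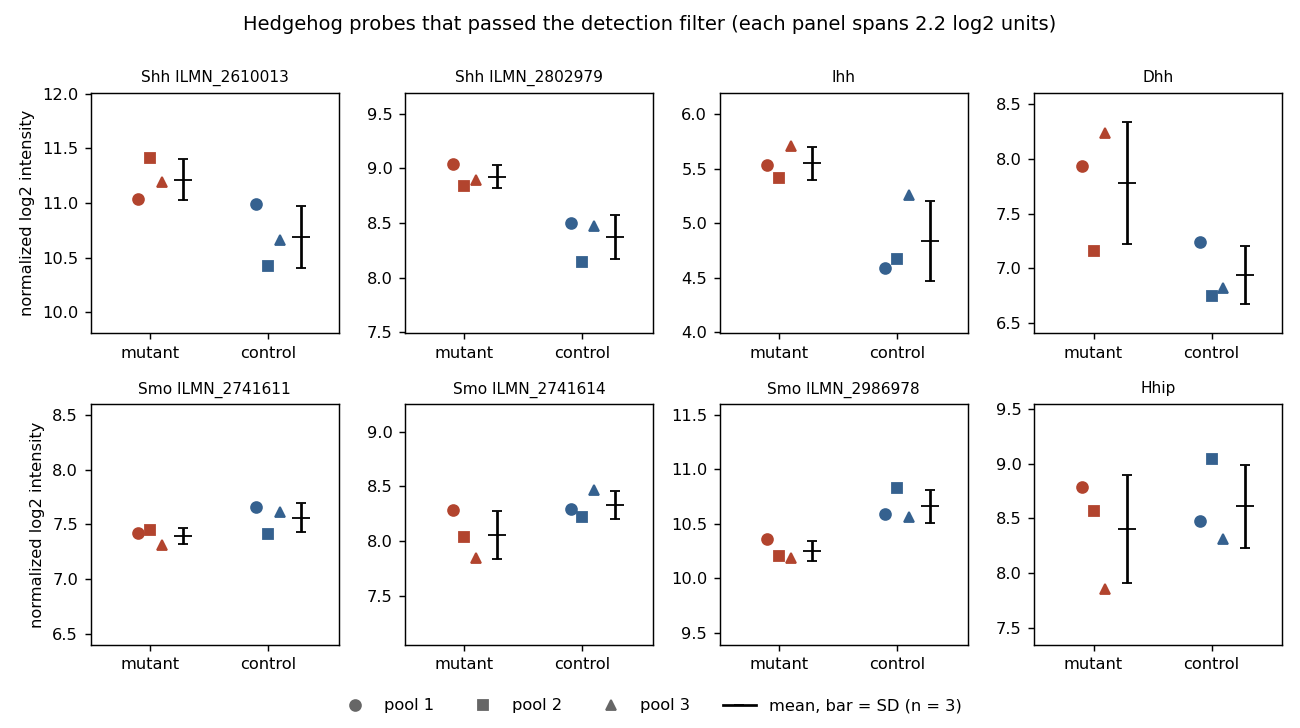
Normalized log2 intensity of the 8 Hedgehog probes that passed the detection filter, by pool (symbols), with the mean and SD of each group (n = 3); every panel spans the same range of log2 units. Pools labelled mutant stand at the left of each panel, above the control pools for both Shh probes and Ihh and below them for Smo ILMN_2986978, while the groups overlap for Dhh, Hhip and the other 2 Smo probes. The Ihh probe passed the filter only through the pools labelled mutant, so its separation is not read as a test.

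Ihh was read close to background. Its raw intensities were 198, 190 and 206 in the pools labelled mutant, against 143, 149 and 180 in those labelled control. The lowest detected raw signal on the same arrays was 190, 184 and 190 in the pools labelled mutant and 166, 168 and 180 in those labelled control. The probe was therefore above background in all 3 pools labelled mutant, with bead standard errors of 7.46 to 8.99, and in no control pool, with control pool 3 at a detection p of 0.0564. It entered the fit only through the pools labelled mutant. The normalized log2 means were 5.55 ± 0.15 in the pools labelled mutant and 4.84 ± 0.37 in those labelled control (SD, n = 3 each). With control values raised to the lowest detected value of each array, the mutant mean was 1.2-fold higher on this scale. That ratio holds for the chosen settings only and is not a lower limit. The log2 difference between the means, without raised values, was 0.36 with an offset of 50 and 0.21 without background correction. The fit did not call it (adjusted p = 0.0861), except without control pool 3, the control pool nearest to detection (adjusted p = 0.047). As the probe had to be higher in the pools labelled mutant to enter the fit, neither p is read as a test of Ihh. Cartilage, the tissue in which Ihh is best known, was read at the same time. Of 10 chondrocyte genes tested, 7 fell and none rose (5 to 6 without 1 pool), where 2.96% of all genes tested fell. Hapln1, 1 of the 7, was above background in no pool labelled mutant. It entered the fit only through the control pools, so its call is not read as a test. The summed intensity of the 10 genes was 1760 to 1800 in the pools labelled mutant, against 12000 to 14100 in those labelled control. Pth1r, the receptor gene for the parathyroid hormone-related protein that acts downstream of Ihh in the growth plate, fell (log2 difference -0.79, SE 0.12, adjusted p = 0.0246), but it was called in 2 of the 6 fits without 1 pool (without control pool 1 or mutant pool 1).

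Dhh was above background in every pool. Its log2 intensities were 7.94, 7.16 and 8.24 in the pools labelled mutant, against 7.24, 6.75 and 6.82 in those labelled control. Mutant pool 2 lay below control pool 1, so the groups overlapped, and the spread within the pools labelled mutant was the largest among the 8 probes. The means were 7.78 ± 0.56 in the pools labelled mutant and 6.94 ± 0.27 in those labelled control (SD, n = 3 each). The difference of 0.84 was not called (SE 0.28, 95% interval 0.18 to 1.5, adjusted p = 0.136), and ranged from 0.61 to 1.15 in the fits without 1 pool. The raw intensities were 424, 297 and 480 in the pools labelled mutant, against 268, 228 and 254 in those labelled control. The standard error over 37 to 45 beads was 2.32% to 3.83% of the signal, which covers the measurement within an array only.

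Endothelium, a known source of Dhh, was read beside it. Of the 6 endothelial genes tested, 1 fell and none rose, where 2.96% of all 10831 genes tested fell. The median log2 difference of the 6 was -0.31, against 0.01 for all genes. The gene that fell, Eng, a receptor gene for transforming growth factor beta, was called in none of the fits without 1 pool (adjusted p 0.0556 to 0.126). The part of any cell type's share in the Dhh values was not tested.

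Smo, the signal transducer that Ptch1 inhibits, was read by 3 probes, all lower on average in the pools labelled mutant and none called. Probe ILMN_2986978 had log2 intensities of 10.36, 10.21 and 10.19 in the pools labelled mutant, against 10.59, 10.83 and 10.56 in those labelled control. The groups did not overlap, and the difference was -0.41 (SE 0.11, 95% interval -0.68 to -0.15, adjusted p = 0.0865). Probe ILMN_2741614 had 8.28, 8.04 and 7.84 in the pools labelled mutant, against 8.29, 8.22 and 8.47 in those labelled control. Probe ILMN_2741611 had 7.42, 7.45 and 7.31 in the pools labelled mutant, against 7.66, 7.41 and 7.61 in those labelled control. The groups overlapped on both, with differences of -0.28 (adjusted p = 0.288) and -0.17 (adjusted p = 0.388), whose 95% intervals of -0.60 to 0.05 and -0.42 to 0.08 include 0. Before normalization the raw means of these 2 probes were not lower: 439 in the pools labelled mutant against 429 in those labelled control for ILMN_2741614, and 331 against 309 for ILMN_2741611, on arrays whose median intensity was also higher under the mutant label. Probe ILMN_2986978 was called without background correction (-0.38, adjusted p = 0.0323) and with a variance trend and robust estimation (adjusted p = 0.0223), and in no fit without 1 pool.

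Fibroblast genes, as markers of mesenchyme, had differences below 0 in 8 of 9 cases with a median of -0.39. Among all 10831 genes tested, 5294 had differences below 0 and 2.96% fell by the test. Of the 9 fibroblast genes, 3 fell and none rose: Thy1, a surface marker (-1.25, SE 0.15, adjusted p = 0.013), Twist2, a mesenchymal transcription factor gene (-0.71, SE 0.14, adjusted p = 0.0447), and the collagen gene Col1a1 (-0.55, SE 0.12, adjusted p = 0.0479). Of the 6 fits without 1 pool, Thy1 was called in 3, Twist2 in 1 and Col1a1 in 0. The summed intensity of the 9 genes was 40200 to 47900 in the pools labelled mutant, against 50200 to 54500 in those labelled control. Relative to the mean log2 level of the 9 genes, Smo ILMN_2986978 differed by 0.05 (exact two-sided permutation p = 0.4), ILMN_2741614 by 0.19 (exact p = 0.2) and ILMN_2741611 by 0.30 (exact p = 0.1, the smallest that 3 pools against 3 allow). The sign of these relative differences is opposite to that of the Smo differences themselves, and the part of the mesenchymal share in the Smo values was not tested.

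Ptch1, the ligand receptor, was not read well enough to be tested. Its raw intensities were 203, 174 and 185 in the pools labelled mutant, against 165, 162 and 177 in those labelled control. Only mutant pool 1 was above background, with a detection p of 0.015. Across the other pools the detection p ran between 0.0551 and 0.132. The log2 difference was 0.09 (95% interval -0.34 to 0.51), a description of signals around the background level.

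Gli3, the Gli factor that acts mainly as a repressor in the absence of ligand, was likewise near background. Its raw intensities were 184, 190 and 168 in the pools labelled mutant, against 156, 173 and 167 in those labelled control. It was above background in mutant pool 2 and control pool 2 and in no other pool, and the log2 difference was 0.01 (95% interval -0.54 to 0.55). The array table also names 1 probe Gli, a symbol that the RefSeq gene table lists neither as a current name nor as a synonym, so it was not counted among the members. It was above background in no pool, with raw intensities of 157, 174 and 160 in the pools labelled mutant and 141, 134 and 153 in those labelled control. The level of the Gli factors was therefore not measurable on these arrays in either group.

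**Figure D3:**
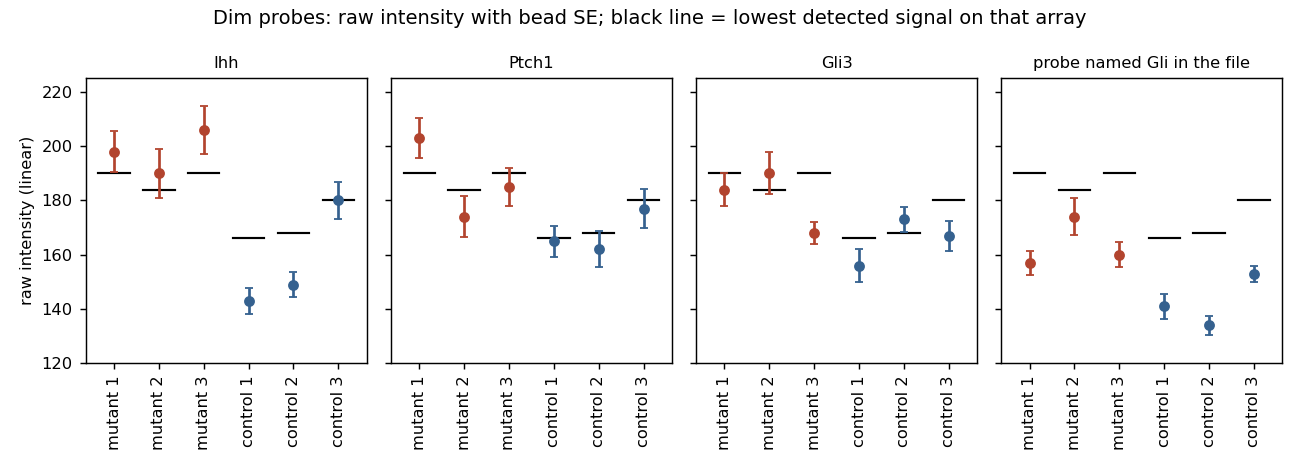
Raw intensity on a linear axis that does not start at 0, with the standard error over beads, of the 4 dim probes on each array; the black line is the lowest detected signal on that array. Ihh lies above the line in the 3 pools labelled mutant, Ptch1 and Gli3 cross it in single pools, and the probe that the file names Gli stays below it throughout.

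Hhip, which binds and sequesters Hedgehog ligands at the cell surface, was above background in every pool and was the only feedback target that could be tested. Its log2 intensities were 8.79, 8.57 and 7.85 in the pools labelled mutant, against 8.48, 9.04 and 8.31 in those labelled control. The groups overlapped, with mutant pool 3 lowest and control pool 2 highest of all 6. The means were 8.41 ± 0.49 in the pools labelled mutant and 8.61 ± 0.38 in those labelled control (SD, n = 3 each), and the difference of -0.20 was within the spread between pools (SE 0.28, adjusted p = 0.717). Its 95% interval, -0.87 to 0.46, covers signals from 0.547-fold to 1.38-fold of the control level, so differences within that range could not be resolved. The raw means were 532 in the pools labelled mutant and 495 in those labelled control, with a sign opposite to that of the normalized means. The sign turned without control pool 2 (0.01) or mutant pool 3 (0.07).

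Other genes of the pathway were read from lists by role. For the release and reception of ligand, 6 of 15 listed genes had a tested probe. All 6 had differences below 0 (median -0.32), against 5294 of all 10831 genes tested. Of the 6, 1 fell and none rose, where 4.73% of all 10831 genes tested were called (2.96% fell and 1.76% rose). Scube3, of a family of secreted proteins that help release lipid-modified Hedgehog, fell: its log2 intensities were 6.87, 6.44 and 6.58 in the pools labelled mutant, against 7.95, 7.84 and 7.95 in those labelled control. No value of one group came near the other, and the difference was -1.28 (SE 0.13, adjusted p = 0.00858), or -0.66 without background correction. Scube3 was called in each of the 6 fits without 1 pool (adjusted p up to 0.0452) and under each of 9 other settings. Disp1, the transporter that exports Hedgehog ligands from the producing cell, had 8.58, 8.76 and 8.69 in the pools labelled mutant, against 9.15, 9.15 and 9.01 in those labelled control, and missed the threshold (difference -0.43, SE 0.10, adjusted p = 0.0586). The probes for the co-receptor genes Gas1, Cdon and Boc did not pass the detection filter.

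For the cytoplasm and cilium, 19 of 26 listed genes were tested and none was called by limma, with a median difference of -0.05. The unadjusted p was below 0.05 for 6 of the 19, against 2653 of all 10831 genes tested. Those 6 were split, with 3 higher in the pools labelled mutant (Stk36 at 0.47, Ift88 at 0.42 and Ift172 at 0.38) and 3 lower (Sufu, Evc and Gsk3b, the last at -0.49). The smallest p was that of Evc, a ciliary partner of Smo (-0.57, SE 0.18, adjusted p = 0.115), and next to it stood Sufu, the cytoplasmic inhibitor of Gli factors (-0.75, SE 0.26, adjusted p = 0.143). The Sufu probe was above background in 1 of 3 pools labelled mutant and 2 of 3 labelled control, and it was called without control pool 3 (-1.08, adjusted p = 0.0367). Of 20 genes known as Hedgehog targets in other tissues, 14 were tested, 1 fell and none rose. Differences lay below 0 in 12 of the 14 (median -0.17), against 5294 of all 10831 genes tested. Snai1, a repressor of the epithelial cadherin gene, fell, with 8.33, 8.10 and 7.77 in the pools labelled mutant, against 8.99, 8.85 and 8.90 in those labelled control (difference -0.85, SE 0.15, adjusted p = 0.0329). It kept its call without mutant pool 1 and lost it without any other single pool: the adjusted p was 0.0638, 0.0898 and 0.0944 without control pools 1, 2 and 3, and 0.115 and 0.0655 without mutant pools 2 and 3. It was also lost with the pool number as a block (0.0676). A count of 1 or 0 in lists of this size does not set them apart from all genes.

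**Figure D4:**
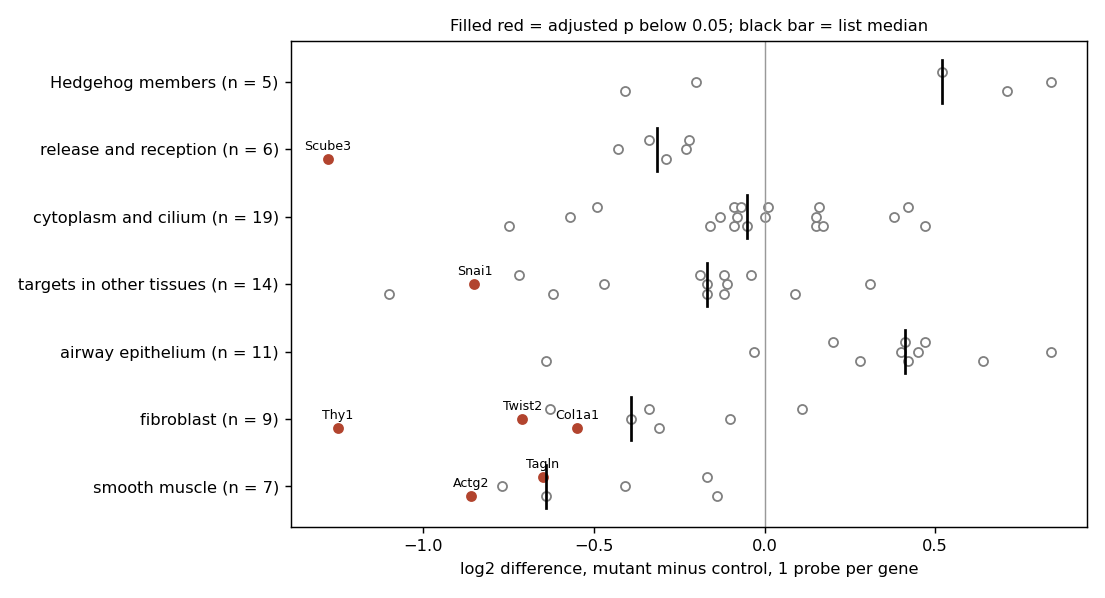
Log2 difference, mutant minus control, of each tested gene (1 probe per gene) in the Hedgehog lists and in marker lists of the tissues that make or receive ligand; red points passed the test and black bars are list medians. The members spread to both sides of 0 with no call, Scube3 and Snai1 are the calls among the other Hedgehog genes, and the epithelial median lies at 0.41 against -0.39 for fibroblasts and -0.64 for smooth muscle.

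Smooth muscle, another mesenchymal tissue that responds to Hedgehog ligand, had differences below 0 in all 7 tested genes, against 5294 of all 10831 genes tested. Of the 7, Actg2, a smooth muscle actin (-0.86, adjusted p = 0.0363), and Tagln, an actin-binding protein (-0.65, adjusted p = 0.0467), fell, where 2.96% of all genes tested fell. Actg2 was called in 2 and Tagln in 1 of the 6 fits without 1 pool. Relative to the mean log2 level of the 7 genes, Hhip was -0.82, -0.70 and -1.18 in the pools labelled mutant, against -1.0, -1.0 and -1.64 in those labelled control, a difference of 0.32 with overlapping groups (exact two-sided permutation p = 0.3). These relative levels, like those for Shh and Smo, describe these pools. The smallest exact p that 3 pools against 3 allow is 0.1, so none of these comparisons could pass 0.05.

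The genes whose levels ran most alike to a member over the 6 arrays were found among 10339 genes by Pearson correlation, with no test. For the Shh probe ILMN_2610013 they were Tnip1 (0.995) and St14, which encodes the epithelial membrane protease matriptase (0.994). For ILMN_2802979 they were Rnf4 (0.994) and Zfp846 (0.994), so the 2 Shh probes shared none of these. For Dhh they were Mia2 (0.993) and Wnk1 (0.991). For Ihh, whose control values lie under detection, they were Pcmtd2 (0.9996) and Etfrf1 (0.985). For Hhip they were Mxd4 (0.984) and Tnrc6b (0.976). For Smo they were Krtdap (0.996) and Dctd (0.993) by ILMN_2986978, Hoxa4 (0.995) and Tie1 (0.989) by ILMN_2741614, and Ccdc97 (0.989) and Tgm1 (0.989) by ILMN_2741611. With 6 points and a search over so many genes, values of this size describe the arrays and single out no gene.

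The authors' deposited table lists 9 of the 10 Hedgehog probes, all but that of Ptch1, and its values give the same calls. In the authors' deposited table the adjusted p was 0.0677 and 0.135 for the Shh probes, 0.0914 for Ihh, 0.143 for Dhh, 0.0932 for Smo ILMN_2986978, 0.724 for Hhip and 0.992 for Gli3. None was below 0.05. Over every setting tried here, the calls among members were those of Shh ILMN_2802979, Smo ILMN_2986978 and Ihh given above.

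**Figure D5:**
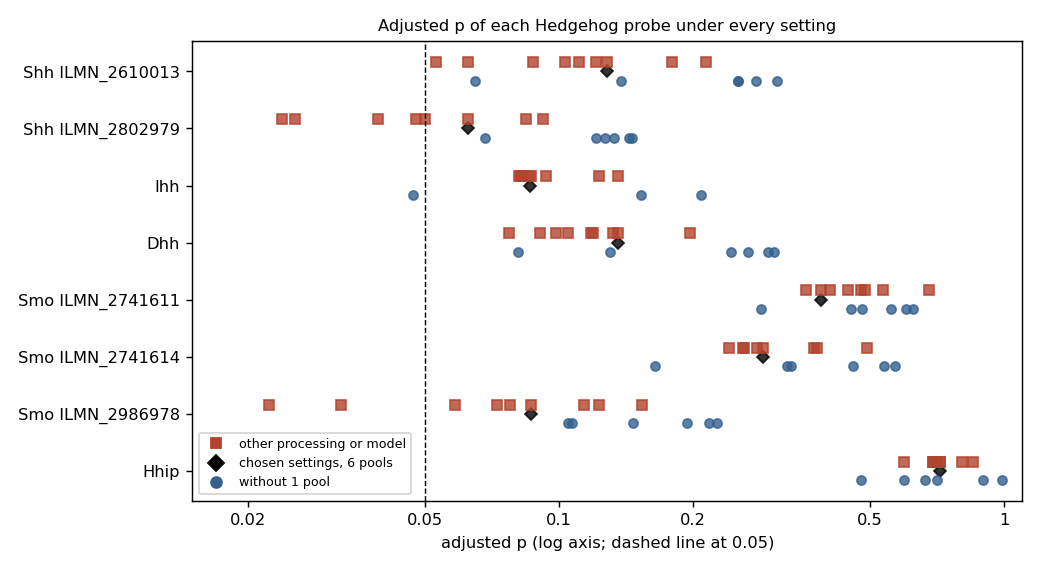
Adjusted p (log axis) of each of the 8 tested Hedgehog probes with the chosen settings (black), under other processing or models (red squares) and without 1 pool (blue circles); the dashed line marks 0.05. Shh ILMN_2802979, Smo ILMN_2986978 and Ihh cross the line in some settings, and Dhh, Hhip, Shh ILMN_2610013 and the other 2 Smo probes stay to its right in all of them. The p of Ihh is not read as a test, as its probe entered the fit only through the pools labelled mutant.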

How the data were processed

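Raw mean bead intensities, bead standard errors and detection p-values of 25697 probes on 6 arrays, as deposited by the authors and named in the file headers, were the source of all values. The authors' series values, also deposited, are log2 intensities, and the processing notes of the submitters name R 3.2.3 and limma 3.26.9. The authors' deposited table adds log2 differences, moderated t scores and p-values of 15335 probes; its differences equal mutant minus wild-type means within 7.67e-09, although the name of one deposited copy gives the opposite order. Bead numbers are given per the file headers.

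Intensities were processed with neqc (limma 3.58.1, R 4.3.3; normexp on the background inferred from detection p-values, offset 16, quantile normalization). The result lay within 0.017 of the authors' log2 values. A probe was kept when its detection p fell under 0.05 in 3 or more of the 6 pools (14711). Every kept probe was tested with limma's lmFit and eBayes, mutant minus control, without covariates, with Benjamini-Hochberg adjustment over all kept probes. A gene in a list stood by its kept probe of highest mean (10831 genes), with symbols updated through RefSeq synonyms (GRCm38.p6). For Ihh and Sox9, not detected in the control pools, the printed ratio takes control values as no lower than each array's lowest detected value. On simulated data from these 14711 probes, the fit recovered 33.8% of changes of 0.58 on the log2 scale and 60.6% of changes of 1. The simulation changed only a small part of the probes, whereas 23.4% of the measured ones had an unadjusted p below 0.05. Its rates need not hold for the measured data. Members and lists were chosen with earlier results of these data known; named genes are all members, called pathway genes (or the 2 of smallest p), the 2 genes most alike to each member, and marker genes a result turns on. Some pathway and marker genes were named after their values were seen (Disp1, Foxa2, Krt5 and others beside a member). The fits of called marker genes without 1 pool and the counts over probes detected in every pool were added after seeing the data.

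Pool numbers did not pair the groups: the design text says pools were random, and same-numbered deviations correlated at -0.0169, -0.0908 and -0.103. The Schwann cell markers are not reported here.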

Additional observations from a re-analysis of the deposited data

How the results depend on the processing

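The count of Hedgehog probes called higher was 0 with the chosen settings and 1 without background correction, with an offset of 50, with median scaling, and with a variance trend and robust estimation; in each case this was Shh ILMN_2802979, with differences of 0.40, 0.51, 0.65 and 0.55. The count called lower was 1 without background correction and with the variance trend, in each case Smo ILMN_2986978 (-0.38 and -0.41). Without 1 pool the counts were 0 to 1 higher, the 1 being Ihh, which is not read as a test, and 0 to 0 lower. The Ihh difference was 0.59 to 0.92 in only 3 fits, those without a control pool. Without any 1 mutant pool its probe did not pass the detection filter and was not fitted. The Hhip difference was -0.39 to 0.07 over 6 fits, and turned to 0.01 without control pool 2 and 0.07 without mutant pool 3. No other difference among the 8 tested probes changed sign in the fits that the probe entered. Release and reception genes called lower were 1, or 2 (with Disp1) without background correction, with an offset of 50, over probes detected on all 6 arrays, with 1 probe per gene and with the variance trend. Cytoplasm and cilium genes called lower were 0, or 1 with the variance trend, and 0 to 1 without 1 pool. Targets called lower were 1, or 2 without background correction, with median scaling and over probes detected on all 6 arrays, 3 with an offset of 50, 4 with the variance trend, 0 with the pool number as a replicate block, and 0 to 1 without 1 pool. Over the whole array 649 probes were called, against 1184 without background correction, 1368 with the variance trend, 426 without the detection filter, 123 with the replicate block and 47 to 589 without 1 pool. Of the calls, 37.8% were higher in the pools labelled mutant, or 54.9% with median scaling. The replicate block changed no call among the member probes. The cause of these shifts was not tested. Signals near background limit Ihh, Ptch1 and Gli3.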
